A study of Mus musculus with 4 samples.

Results

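The cholesterol synthesis and SREBP2 programme was followed in RNA sequencing libraries of whole adipocytes taken from the perigonadal white fat of male mice on a standard diet. It was set out as 26 named genes: 20 enzymes in pathway order from acetyl-CoA to cholesterol, and 6 regulators and carriers of sterols. They were chosen by name, with earlier results of these data known. All 26 were present among the 55487 genes of the table and all 26 passed the filter on low values, as 26 of 16871 genes tested. The 2 groups were CKO mice and their control littermates, labelled WT, with 2 libraries each. The labels leave CKO unexplained. The title of the series names BLIMP1, a transcriptional repressor encoded by Prdm1, and its part in macrophages. The labels and design text used here name no Cre driver, allele or age, and they do not say whether each library came from its own animal, so a p-value speaks only of the spread among the 4 libraries. The single comparison is CKO against WT, and the question put to it here is how the genes that make and sense cholesterol differed.

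Cells build cholesterol from acetyl-CoA through mevalonate, isoprenoid diphosphates, squalene and lanosterol. The transcription factor SREBP2, encoded by Srebf2, drives nearly all of these enzymes. It is made as a membrane protein of the endoplasmic reticulum: SCAP escorts it to the Golgi for cleavage when sterols are scarce, and INSIG1 or INSIG2 hold the SCAP complex back when sterols are plentiful. SREBP2 also raises Insig1 and its own gene, so that these RNAs follow its activity along with the enzymes. White adipocytes hold a large pool of cholesterol around and within the fat droplet, much of it taken up from lipoproteins, whereas dividing cells rely more on synthesis.

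The libraries held between 24152081 and 26742547 reads, and values below are scaled reads, that is reads divided by a size factor of the library between 0.951 and 1.10. Prdm1 had 152 and 350 scaled reads in CKO replicates 1 and 2, and 534 and 1193 in WT replicates 1 and 2. All 8 macrophage markers looked at were lower in both CKO libraries than in both WT libraries, as were 26.8% of all genes. Their summed scaled reads were 28537 and 71800 in CKO and 147408 and 420638 in WT. The 8 adipocyte markers summed to 718603 and 628935 in CKO and 555793 and 200871 in WT. Of these sums, Fabp4 alone held 423300 and 441100 in CKO and 305870 and 126860 in WT. Of the 8, 3 were higher in both CKO libraries, against 23.9% of all genes, and 1 was lower in both, against 26.8%. WT replicate 2 differed from the rest, with the most macrophage and the fewest adipocyte reads, and values without it follow the account of the members. In bulk RNA, fewer cells of a type and less RNA per cell cannot be told apart.

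No member passed limma's test at an adjusted p under 0.05 in either direction, where 0.0% of all genes were called lower and 0.0% higher. The smallest adjusted p of any gene was 0.459, and an exact permutation test of 2 libraries against 2 cannot go below 0.33. At an unadjusted p under 0.05, 6 members (23.1%) were lower in CKO, against 7.26% of all genes tested, and 0 were higher, against 3.35%. These 6 were Dhcr7, Mvd, Hsd17b7, Msmo1, Tmem97 and Insig1: enzymes of mevalonate use and of the last steps from lanosterol, a sterol-responsive membrane protein, and the sterol sensor that SREBP2 itself induces. Both CKO libraries lay below both WT libraries for 9 members (34.6%), against 26.8% of all genes, and above both for 2 (7.69%), against 23.9%. The 9 were the same 6 with Sqle, Ebp and Srebf2, and the 2 were Lbr and Insig2. The remaining 15 members overlapped between the groups, among them Hmgcs1, Mvk and Lss.

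The 26 changes ranged between -1.36 and 0.61 on the log2 scale, with a median of -0.16, and 16 were negative (61.5%, against 48.9% of all genes). The median of all genes tested was 0.015. Without WT replicate 1 the median of the members was -0.019, without CKO replicate 2 it was -0.083, and without WT replicate 2 it was -0.26. By stage, the medians were -0.10 over the 5 early mevalonate enzymes, 0.086 over the 3 isoprenoid enzymes, -0.083 over the 3 enzymes from squalene to lanosterol, -0.45 over the 9 enzymes from lanosterol to cholesterol, and -0.54 over the 6 regulators and carriers. Each stage held members on both sides of 0. The summed scaled reads of the 26 members were 31716 and 28149 in CKO and 38584 and 32709 in WT, with CKO replicate 1 and WT replicate 2 close together. Taken instead per 1e+06 reads of the library, the members held 1253 and 1162 in CKO and 1539 and 1190 in WT, and the groups overlapped, so that the separation of the sums depended on the scaling.

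**Figure D1:**
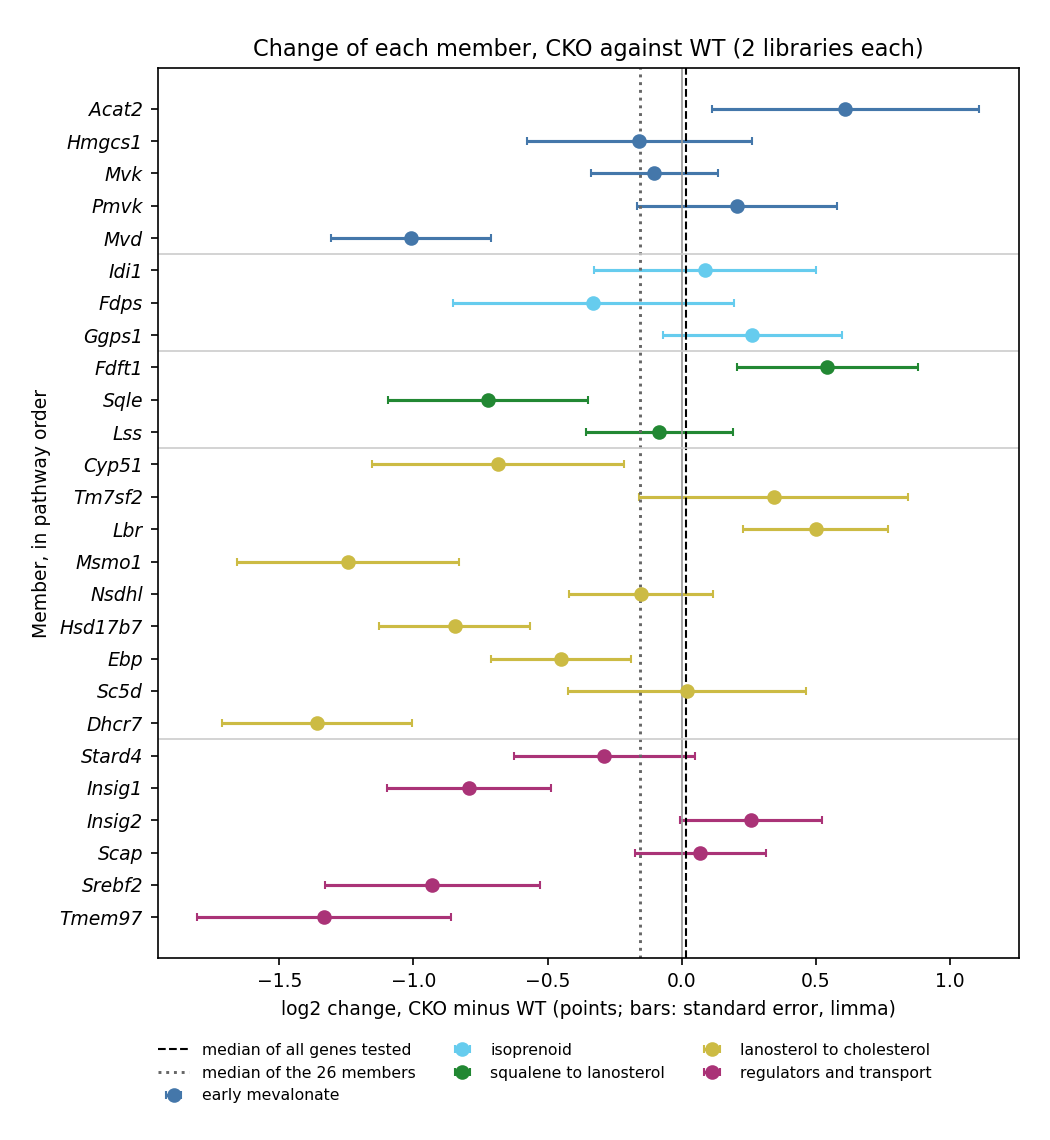
The log2 change of each member, CKO minus WT, runs along the x axis and the members run down the y axis in pathway order, with bars for limma's standard error and 2 libraries in each group. Dhcr7, at -1.36, lies farthest left and Acat2, at 0.61, farthest right, while the median of the members is -0.16 and that of all genes 0.015.

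Promoter sequence shows something these genes share that was not used to choose them. RefSeq windows of 300 bases, 250 before and 50 from the annotated start on, in GRCm38.p6, were found for 22 of the 26 members. They were searched on both strands for TCACNCCAC, a form of the sterol response element that SREBP2 binds, and for CCAAT and GGGCGG, the boxes of its partner factors NF-Y and Sp1. In the members' windows no match overlapped a match to another motif. The 5 promoters shown belong to Hmgcs1, the member with a match to TCACNCCAC, and to 4 of the 6 members lower at an unadjusted p under 0.05. Capitals mark a match on either strand, so that ATTGG and CCGCCC are CCAAT and GGGCGG read from the other strand.
Hmgcs1, chr13:119690101-119690400, plus strand: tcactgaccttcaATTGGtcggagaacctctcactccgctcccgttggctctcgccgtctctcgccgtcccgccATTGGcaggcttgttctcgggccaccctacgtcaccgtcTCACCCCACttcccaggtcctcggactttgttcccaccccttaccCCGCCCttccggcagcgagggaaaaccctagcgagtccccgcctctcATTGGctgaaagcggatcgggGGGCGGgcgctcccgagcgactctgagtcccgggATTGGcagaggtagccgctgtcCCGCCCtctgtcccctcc
Mvd, chr8:122443373-122443672, minus strand: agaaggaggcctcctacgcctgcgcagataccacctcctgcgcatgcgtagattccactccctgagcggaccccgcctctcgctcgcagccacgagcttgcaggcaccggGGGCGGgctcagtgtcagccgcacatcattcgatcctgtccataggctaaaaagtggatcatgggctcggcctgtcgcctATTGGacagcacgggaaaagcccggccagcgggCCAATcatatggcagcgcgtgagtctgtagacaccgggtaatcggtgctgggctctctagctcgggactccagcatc
Msmo1, chr8:64733529-64733828, minus strand: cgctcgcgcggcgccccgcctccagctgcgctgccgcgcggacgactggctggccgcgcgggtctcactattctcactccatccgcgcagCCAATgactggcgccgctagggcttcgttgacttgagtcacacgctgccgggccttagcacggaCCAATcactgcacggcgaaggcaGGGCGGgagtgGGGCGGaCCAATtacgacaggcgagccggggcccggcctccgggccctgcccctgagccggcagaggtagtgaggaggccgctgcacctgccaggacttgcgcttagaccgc
Dhcr7, the last of 3 annotated starts, chr7:143829964-143830263, plus strand: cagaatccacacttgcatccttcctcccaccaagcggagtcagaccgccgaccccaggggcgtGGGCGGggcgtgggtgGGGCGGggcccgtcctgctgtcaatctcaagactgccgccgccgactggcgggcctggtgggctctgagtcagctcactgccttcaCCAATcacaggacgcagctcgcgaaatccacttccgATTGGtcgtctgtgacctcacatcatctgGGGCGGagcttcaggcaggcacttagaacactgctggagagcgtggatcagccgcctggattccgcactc
Insig1, chr5:28071162-28071461, plus strand: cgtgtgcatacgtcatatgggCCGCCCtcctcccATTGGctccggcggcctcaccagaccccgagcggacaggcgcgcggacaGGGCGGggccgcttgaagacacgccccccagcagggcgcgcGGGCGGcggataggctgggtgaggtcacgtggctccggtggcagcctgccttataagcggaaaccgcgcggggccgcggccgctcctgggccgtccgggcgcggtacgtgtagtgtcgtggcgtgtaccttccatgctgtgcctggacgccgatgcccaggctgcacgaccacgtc

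Of the 22 members with a window, 20 (90.9%) held CCAAT, against 41.1% of all 27025 genes with a window and 42.4% of the 11296 of these that were tested here. The members without it were Acat2 and Scap. GGGCGG was held by 20 members (90.9%), against 38.2% of all genes and 65.9% of tested genes, and was missing from the windows of Pmvk and Ggps1. Both boxes stood in a single window of 17 members (77.3%), against 14.5% of all genes and 25.7% of tested genes. TCACNCCAC was found in 1 of 22 (4.55%), against 1.44% of all genes and 1.39% of tested genes, at base -137 of Hmgcs1. Members with both boxes in a window included Mvd, Msmo1, Dhcr7 and Insig1, and also Mvk, Lss and Sc5d, whose groups overlapped. The members without both in a single window were Acat2, Pmvk, Ggps1, Insig2 and Scap. Their log2 changes were 0.61, 0.21, 0.26, 0.26 and 0.07, all positive, at unadjusted limma p between 0.277 and 0.789. Not all of these signs held when a library was left out. Without WT replicate 2, Acat2 was at -0.013, Pmvk at -0.185 and Ggps1 at -0.133. Without CKO replicate 1, Pmvk was at -0.068 and Scap at -0.090. With all libraries, Idi1, Tm7sf2, Lbr and Sc5d held both boxes and had positive changes as well. The other members with both had negative ones. Whether the boxes bear on the changes was not tested. A match is a run of letters and not a shown binding site. Only exact matches were sought, so a window without a match may still hold another form of the sterol element.

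**Figure D2:**
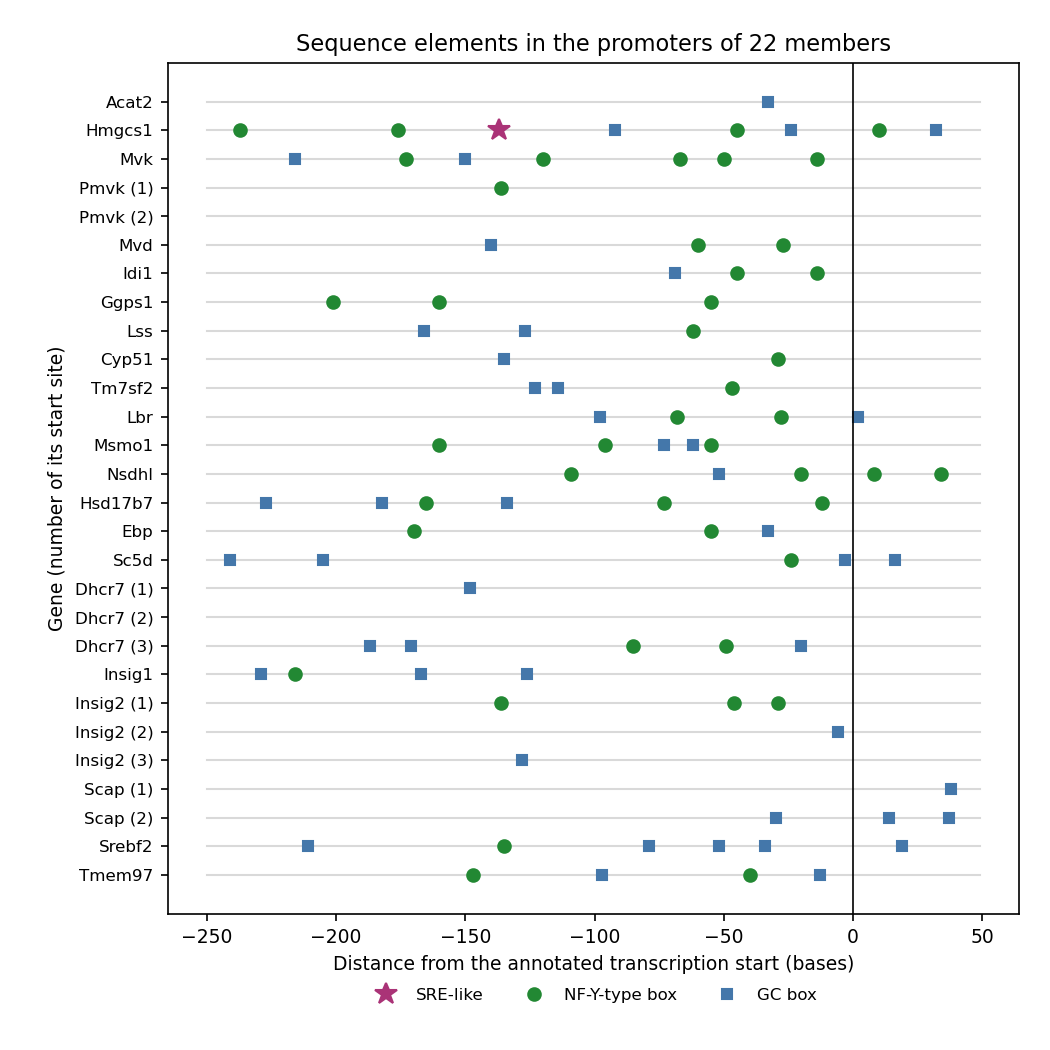
Matches to the sterol element (SRE-like), the CCAAT type (NF-Y-type box) and the GC box are drawn along the 28 windows of 22 members, with the distance from the annotated start in bases on the x axis and the member and its start site on the y axis. The SRE-like match stands only in Hmgcs1, at -137, while the other boxes recur down the page.

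The early enzymes turn acetyl-CoA into isopentenyl diphosphate. Acat2, the cytosolic thiolase that joins acetyl-CoA units, had 2462 and 1554 scaled reads in CKO and 1974 and 832 in WT. Hmgcs1, which adds a further acetyl unit to make HMG-CoA, had 4298 and 4598 in CKO and 7173 and 3431 in WT. Acat2 shared 45.9% of its 50-base words with Acat3, which had 9 and 15 reads in CKO and 8 and 5 in WT. Exons of other genes held 35.1% of the longest coding sequence of Hmgcs1. The sources used here do not say how shared sequence was counted, so the levels of Acat2 and Hmgcs1 are uncertain. Both Acat2 and Hmgcs1 were lowest in WT replicate 2 and their groups overlapped. The kinases that phosphorylate mevalonate in turn overlapped as well, Mvk with 649 and 601 in CKO and 709 and 634 in WT, and Pmvk with 1595 and 1091 in CKO and 1500 and 873 in WT. The log2 changes of these 4 genes were 0.61, -0.16, -0.10 and 0.21, with unadjusted limma p between 0.277 and 0.721.

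Mvd, the decarboxylase that completes isopentenyl diphosphate, stood apart from them. It lies on chromosome 8 of GRCm38 between 122433601 and 122443422 on the minus strand. Its scaled reads were 201 and 265 in CKO and 441 and 493 in WT. Both CKO libraries were below both WT libraries, and the WT libraries differed by only 0.16 on the log2 scale. It averaged 233 ± 45.3 in CKO and 467 ± 36.6 in WT (SD, n = 2 each). This gave a log2 change of -1.01 (SE 0.299), at an unadjusted limma p of 0.0203 and an adjusted p of 0.459.

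The isoprenoid enzymes showed no separation of the groups. Idi1, the isomerase of isopentenyl diphosphate, had 102 and 74.3 scaled reads in CKO and 91.4 and 73.6 in WT. Fdps, which makes farnesyl diphosphate, had 35.1 and 42.6 in CKO and 35.3 and 67.3 in WT, and Ggps1, which lengthens it for protein prenylation, had 1229 and 1196 in CKO and 1329 and 768 in WT. Fdps and Idi1 were the lowest members per length, at 0.416 ± 0.118 and 0.957 ± 0.171 RPKM (SD, n = 4 libraries), that is reads scaled by the length of merged exons and by the library's reads. Exons of another gene model on the same strand, Gm43738, overlapped Fdps, and 87.2% of the longest coding sequence of Fdps lay in exons of other genes. Gm43738 was listed at 0 reads in every library, and the sources used here do not say how shared exons were counted, so the level of Fdps is uncertain. Idi1 shared 30.5% of its 50-base words with other genes' transcripts, among them a processed pseudogene, Gm13502. Gm13502 had 91 and 76 reads in CKO and 98 and 94 in WT, against 102 and 82 in CKO and 88 and 70 in WT for Idi1. The level of Idi1 is therefore uncertain as well.

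The next enzymes commit farnesyl diphosphate to sterols. Fdft1, squalene synthase, had 1290 and 936 scaled reads in CKO and 947 and 600 in WT. Sqle, the squalene epoxidase, had 634 and 607 in CKO and 742 and 1412 in WT. Lss, which closes the ring to lanosterol, had 824 and 668 in CKO and 898 and 689 in WT. Only Sqle of these 3 kept the groups apart, with a log2 change of -0.72 and an unadjusted limma p of 0.110. Its WT libraries lay 0.93 apart on the log2 scale, more than that change, which was -0.26 without WT replicate 2 and -1.19 without WT replicate 1. Fdft1 lies against Ctsb on the opposite strand and shared 18.3% of its exon bases with genes there. Ctsb had 45497 and 71908 reads in CKO and 128447 and 374301 in WT, and since the sources used here do not say whether counting used strand, the reads of Fdft1 are uncertain.

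**Figure D3:**
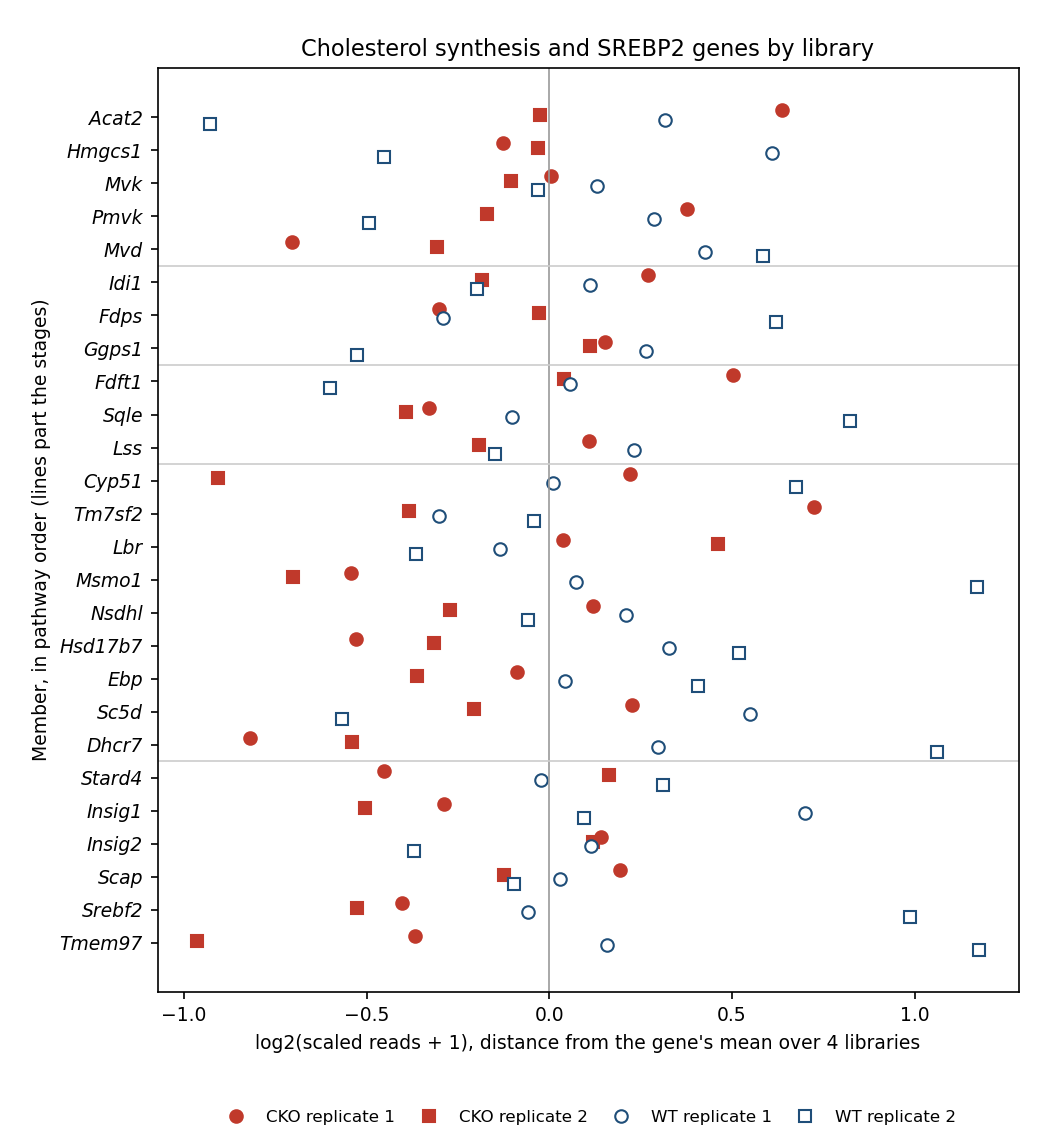
Each member has 4 points, the distance of its log2(scaled reads + 1) from its mean over the 4 libraries on the x axis, with members in pathway order down the y axis. WT replicate 2 is the highest library for 11 members, such as Msmo1 and Srebf2, and the lowest for 9, such as Acat2 and Sc5d, and CKO replicate 2 is the lowest for 12.

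The enzymes from lanosterol to cholesterol held 3 of the 6 members lower at an unadjusted p under 0.05. Msmo1 is the oxidase that begins the removal of methyl groups carried on by Nsdhl and Hsd17b7. It lies on chromosome 8 between 64718139 and 64733792 on the minus strand. It had 859 and 770 scaled reads in CKO and 1317 and 2821 in WT. Both CKO libraries were close to each other and below both WT libraries, which lay 1.10 apart on the log2 scale. It averaged 814 ± 62.7 in CKO and 2069 ± 1064 in WT (SD, n = 2 each). The log2 change was -1.24 (SE 0.414), at an unadjusted limma p of 0.0306 and an adjusted p of 0.459.

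Hsd17b7, a ketosteroid reductase, acts in the same removal of methyl groups and lies on chromosome 1 between 169949535 and 169969241 on the minus strand. Its scaled reads were 229 and 266 in CKO and 416 and 476 in WT. The groups were apart and each was narrow. It averaged 248 ± 26.1 in CKO and 446 ± 42.4 in WT (SD, n = 2 each). CKO minus WT came to -0.85 on the log2 scale (SE 0.281), with an unadjusted limma p of 0.0303 and an adjusted p of 0.459. Nsdhl, the dehydrogenase that works between Msmo1 and Hsd17b7, had 929 and 708 in CKO and 990 and 821 in WT. Its groups overlapped, at a log2 change of -0.15, and the difference in change between Nsdhl and Hsd17b7 was not tested.

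Dhcr7, which reduces the final intermediate to cholesterol, had the smallest unadjusted p of the 26 members. It lies on chromosome 7 between 143823145 and 143848410 on the plus strand. Its scaled reads were 294 and 356 in CKO and 638 and 1084 in WT. Both CKO libraries were well below both WT libraries. It averaged 325 ± 44.2 in CKO and 861 ± 316 in WT (SD, n = 2 each). This gave a log2 change of -1.36 (SE 0.353), at an unadjusted limma p of 0.0124 and an adjusted p of 0.459.

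The other enzymes of this stage divided. Ebp, which moves a double bond in the ring, had 1132 and 935 scaled reads in CKO and 1239 and 1596 in WT, without overlap. Cyp51, the lanosterol demethylase, had 1328 and 607 in CKO and 1146 and 1818 in WT, and Sc5d, a desaturase, had 3432 and 2543 in CKO and 4295 and 1980 in WT. Both overlapped, and the CKO libraries of Cyp51 lay farther apart than the groups. Lbr, an inner nuclear membrane protein that binds lamin B and also reduces sterols, went the other way, with 2551 and 3421 in CKO and 2264 and 1929 in WT. Its log2 change was 0.50 with an unadjusted limma p of 0.124. Tm7sf2, which catalyses the same reduction as Lbr, had 208 and 96.0 in CKO and 102 and 122 in WT, and CKO replicate 1 alone stood high. Tm7sf2 shares 12.1% of its exon bases with Vps51 on the same strand, and 9.24% of Lbr's exon bases are shared with genes on the opposite strand.

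Among the regulators, the RNA of SREBP2 was below WT in both CKO libraries. Srebf2 lies on chromosome 15 between 82147181 and 82205379 on the plus strand. It had 1338 and 1229 scaled reads in CKO and 1700 and 3511 in WT. The CKO libraries were close together, and the WT libraries were 1.05 apart on the log2 scale, more than the size of the change between groups. It averaged 1284 ± 77.2 in CKO and 2605 ± 1281 in WT (SD, n = 2 each). The log2 change was -0.93 (SE 0.399), at an unadjusted limma p of 0.0682 and an adjusted p of 0.459.

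The INSIG genes differed from each other. Insig1 lies on chromosome 5 between 28071363 and 28078662 on the plus strand. It had 2554 and 2196 scaled reads in CKO and 5062 and 3331 in WT, with both CKO libraries lower. It averaged 2375 ± 253 in CKO and 4197 ± 1224 in WT (SD, n = 2 each). CKO minus WT came to -0.79 on the log2 scale (SE 0.305), with an unadjusted limma p of 0.0490 and an adjusted p of 0.459. Without WT replicate 1 the change was -0.49 (unadjusted limma p of 0.109), and without WT replicate 2 it was -1.10 (0.00924). In WT replicate 1 Insig1 was highest, unlike Srebf2, Msmo1 and Dhcr7, which were highest in WT replicate 2.

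Insig2, on chromosome 1 between 121304353 and 121332589 on the minus strand, is not an SREBP2 target of the same kind. It had 1921 and 1892 scaled reads in CKO and 1886 and 1347 in WT. CKO replicate 2 and WT replicate 1 were nearly equal. It averaged 1907 ± 20.6 in CKO and 1616 ± 381 in WT (SD, n = 2 each). This gave a log2 change of 0.26 (SE 0.265), at an unadjusted limma p of 0.375 and an adjusted p of 0.666. Without WT replicate 2 the change was 0.016, and without WT replicate 1 it was 0.50. Within a library, the ratio of Insig1 to Insig2 reads does not depend on scaling, and it was 1.33 and 1.16 in CKO and 2.68 and 2.47 in WT. This ratio was chosen after the values of both genes were seen, and it is given as a description with no test.

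Scap, the escort protein that INSIG holds back, lies on chromosome 9 between 110333288 and 110384950 on the plus strand. Its scaled reads were 1123 and 900 in CKO and 1001 and 918 in WT. The CKO libraries lay on either side of both WT libraries. It averaged 1012 ± 157 in CKO and 960 ± 58.7 in WT (SD, n = 2 each). The log2 change was 0.07 (SE 0.244), at an unadjusted limma p of 0.789 and an adjusted p of 0.91. The direction of this change turned without CKO replicate 1, to -0.09.

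Tmem97, the sigma-2 receptor, a membrane protein that binds the cholesterol exporter of lysosomes and responds to sterol loss, lies on chromosome 11 between 78541817 and 78550777 on the minus strand. It had 192 and 127 scaled reads in CKO and 277 and 564 in WT. Both CKO libraries were lower, and WT replicate 2 was 1.02 above WT replicate 1 on the log2 scale. It averaged 160 ± 46.3 in CKO and 420 ± 203 in WT (SD, n = 2 each). CKO minus WT came to -1.33 on the log2 scale (SE 0.474), with an unadjusted limma p of 0.0379 and an adjusted p of 0.459. A processed pseudogene, Gm5809, matched 20.8% of its 50-base words and had 19 and 16 reads in CKO and 27 and 63 in WT. Stard4, a carrier that moves sterols between membranes, had 306 and 468 in CKO and 411 and 519 in WT, and its groups overlapped.

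**Figure D4:**
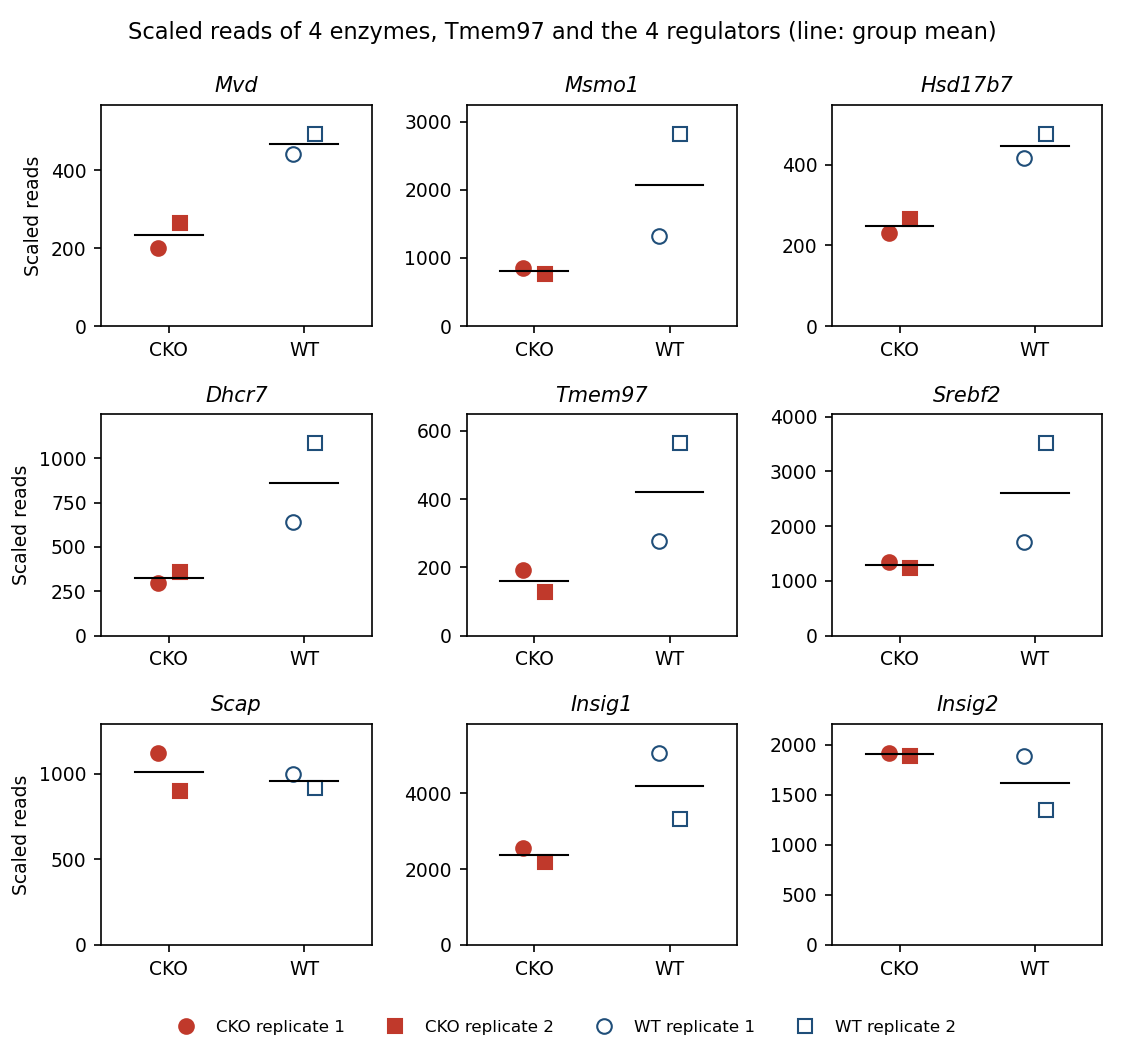
Each panel gives the scaled reads of a gene on the y axis, starting at 0, for the 2 CKO and the 2 WT libraries, with a line at the group mean. Mvd and Hsd17b7 have narrow groups that lie apart, at means of 233 against 467 and of 248 against 446 for CKO against WT, whereas WT replicate 2 lies far above WT replicate 1 for Msmo1, Tmem97 and Srebf2, and Scap overlaps.

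Per length, the most abundant members were Hmgcs1 and Insig1, at 41.9 ± 14.8 and 41.6 ± 16.3 RPKM over the 4 libraries (SD). Pmvk, Acat2, Sc5d and Lbr came next, at 29.1 ± 8.43, 26.6 ± 11.1, 24.9 ± 8.72 and 21.2 ± 6.31. These 6 levels lay within the spread of their neighbours in the order. Srebf2, at 10.4 ± 5.04, was below Insig2 at 20.0 ± 3.97 and above Scap at 5.20 ± 0.620. Of the 6 members lower at an unadjusted p under 0.05, Insig1 was thus among the most abundant and the others were of middle or low level, with Msmo1 at 8.98 ± 5.36, Tmem97 at 8.07 ± 4.87, Mvd at 7.32 ± 2.67, Dhcr7 at 3.92 ± 2.16 and Hsd17b7 at 2.64 ± 0.799. Lengths are of merged exons, which lowers the level of a gene with many annotated isoforms.

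The libraries did not rank the members in a single way. WT replicate 2 was the highest library for 11 members and the lowest for 9, WT replicate 1 was highest for 7 and lowest for 0, CKO replicate 1 was highest for 7 and lowest for 5, and CKO replicate 2 was highest for 1 and lowest for 12. Adgre1, a macrophage surface marker, had 1387 and 2813 scaled reads in CKO and 8381 and 33520 in WT, and Cd68, a macrophage lysosomal protein, had 1776 and 5510 in CKO and 14864 and 57036 in WT. The members that followed the order of Adgre1 through all 4 libraries were Mvd, Hsd17b7 and Dhcr7 (11.5%), against 17.0% of all genes. Sqle, Msmo1, Ebp, Srebf2 and Tmem97 stood in another order, with CKO replicate 2 lowest, then CKO replicate 1, WT replicate 1 and WT replicate 2. Of the 8 macrophage markers only Mrc1 stood in this order, with CKO replicates 1 and 2 close together at 1655 and 1580. Pdgfra, a fibroblast and preadipocyte marker, stood in it as well. Mrc1 and Pdgfra were named after their values were seen, and the share of all genes in their order was not counted. Adipoq, the adipocyte hormone adiponectin, had 71564 and 39344 in CKO and 46130 and 7950 in WT, and Plin1, a coat protein of the fat droplet, had 23780 and 10045 in CKO and 11755 and 2746 in WT. Lep, which encodes the adipocyte hormone leptin and was named after its values were seen, went the other way, with 13439 and 21437 in CKO and 59962 and 26504 in WT. The adipocyte markers thus did not move together. The members in the order of Adipoq were Acat2, Pmvk, Idi1 and Fdft1 (15.4%), against 8.51% of all genes. Whether the share of macrophage or adipocyte RNA set the level of these members was not tested.

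Leaving out a library moved these counts. Without WT replicate 2, 4 members were lower at an unadjusted p under 0.05 in limma, Mvd, Msmo1, Dhcr7 and Insig1, against 4.0% of all genes, and 0 were higher, against 1.54%. The log2 changes were then -0.93 for Mvd, -0.70 for Msmo1, -0.98 for Dhcr7, -1.10 for Insig1, -0.75 for Hsd17b7, -0.82 for Tmem97 and -0.41 for Srebf2, so that those of Msmo1, Tmem97 and Srebf2 were smaller in size by more than 1.5 times. Over all 26 members, 20 changed by more than 1.5 times or turned in sign without WT replicate 2, 18 without WT replicate 1, 13 without CKO replicate 1 and 12 without CKO replicate 2. Mvd, Hsd17b7 and Dhcr7 were in none of these counts. Without CKO replicate 1, 0 members were lower (1.26% of all genes) and 0 higher (0.723%), and without CKO replicate 2, Dhcr7 alone was lower (5.86% of all genes) and 0 were higher (1.11%). Without WT replicate 1, Sqle, Msmo1, Dhcr7 and Srebf2 were lower at an adjusted p under 0.05, against 5.56% of all genes, and 0 were higher, against 4.96%. At an unadjusted p under 0.05, 7 were lower (26.9%) and 3 higher (11.5%) without WT replicate 1, each against 17.0% of all genes. WT was then only its replicate 2, the library with the most macrophage reads, and a lone library is assumed to vary like the other group.

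Genes that work beside the programme were read from lists chosen by function, and with all 4 libraries none of their members passed the adjusted threshold. At an unadjusted p under 0.05 in limma, 7.26% of all genes were lower and 3.35% higher. Of 11 genes of the isoprenoid branch, which prenylate proteins or make dolichol and coenzyme Q, 0 were lower and 0 higher at an unadjusted p under 0.05 and the median change was 0.01. Rabggta, the catalytic subunit that prenylates Rab proteins, was at -0.54, and Nus1, a subunit of the dolichol-making transferase, was at -0.55. Of 11 genes of the sterol-sensing machinery, 0 were lower and 0 higher and the median was -0.09. Erlin1 and Aup1, which serve sterol-triggered protein breakdown in the endoplasmic reticulum, were at -0.51 and -0.56. The median of all genes was 0.015.

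Efflux genes come next. Of 7 LXR and efflux genes, 1 was lower at an unadjusted p under 0.05 in limma, against 7.26% of all genes, and 0 higher, against 3.35%. The median was -0.11. The lower gene was Abcg1, an exporter of cholesterol, with 806 and 1965 scaled reads in CKO and 2951 and 6596 in WT (log2 change -1.81, unadjusted limma p of 0.0291, adjusted p of 0.459), and Cyp27a1, which makes an oxysterol, was at -0.70. Without WT replicate 2 the list's median was -0.056 and 0 genes were lower, with Abcg1 at -1.23 (unadjusted limma p of 0.087), and without CKO replicate 1 it was 0 genes as well, with Abcg1 at -1.17. Of 7 genes of cholesterol uptake and storage, 5 were lower, against 7.26% of all genes, and 0 higher, against 3.35%. The median was -1.40, and it was -0.86 without WT replicate 2 and -1.99 without WT replicate 1. Fewer of these genes were lower when either CKO library was left out, at medians of -1.27 without CKO replicate 1 and -1.28 without CKO replicate 2. Lipa, the lysosomal lipase that frees cholesterol from its esters, had 2603 and 6797 in CKO and 15639 and 50990 in WT. Soat1, which makes cholesteryl esters for storage, had 326 and 1670 in CKO and 4302 and 13876 in WT. Abcg1, Lipa and Soat1 followed the order of Adgre1 through the 4 libraries, and whether macrophage RNA set their levels was not tested.

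The lipogenic genes are driven by the related factors SREBP1 and ChREBP. Of 14 genes, 0 were lower at an unadjusted p under 0.05 in limma, against 7.26% of all genes, and 1 higher, against 3.35%. Of the changes, 13 were positive and 1 was negative, and the median was 1.03. This median rested on WT replicate 2: without it the median was 0.077. Without CKO replicate 1 the median was 0.62, without CKO replicate 2 it was 1.27, and without WT replicate 1 it was 1.60. Fads2, a fatty acid desaturase, had 743 and 629 scaled reads in CKO and 339 and 204 in WT (log2 change 1.38, unadjusted limma p of 0.0114, adjusted p of 0.459), and Acaca, acetyl-CoA carboxylase, had 2077 and 1189 in CKO and 1218 and 285 in WT. Srebf1, named after its values were seen as the paralogue of Srebf2, had 11149 and 6186 in CKO and 7512 and 2998 in WT, at a log2 change of 0.81 with an unadjusted limma p of 0.214. The change of Srebf1 was 0.15 without WT replicate 2. Its groups overlapped and its 4 libraries stood in the order of Adipoq, whereas those of Srebf2 did not overlap and were highest in WT replicate 2. Summed, the 14 genes were lowest in WT replicate 2, at 131553 scaled reads, against 908956 and 503145 in CKO and 667969 in WT replicate 1.

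**Figure D5:**
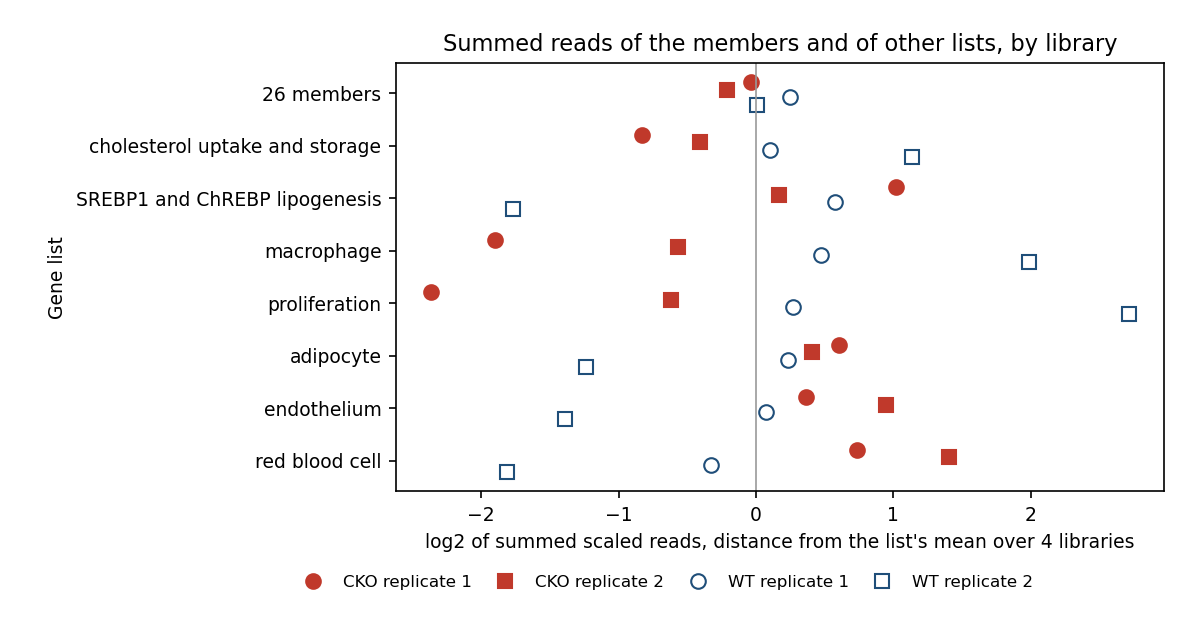
The log2 of the summed scaled reads of each list, as a distance from the list's mean over the 4 libraries, is on the x axis, with the lists down the y axis and 2 CKO and 2 WT libraries for each. The sum of the 26 members moved little between libraries, while the macrophage sum was 420638 in WT replicate 2 and 28537 in CKO replicate 1, and the adipocyte, endothelial and red blood cell sums were lowest in WT replicate 2.

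Markers of other cell types moved between the groups as well. The 5 proliferation genes, of interest because dividing cells make cholesterol, were all lower in both CKO libraries, as were 26.8% of all genes. They summed to 178 and 598 scaled reads in CKO and 1103 and 6017 in WT. The 6 endothelial genes summed to 50323 and 75322 in CKO and 41206 and 14946 in WT, and the 6 red blood cell genes to 18971 and 30255 in CKO and 9098 and 3263 in WT. In both of these lists all 6 genes were higher in both CKO libraries, as were 23.9% of all genes. Fibroblast and preadipocyte genes summed to 8585 and 4695 in CKO and 7283 and 9177 in WT, with overlap. Mesothelial genes summed to 318 and 194 in CKO and 259 and 118 in WT, T cell genes to 48 and 18 in CKO and 28 and 24 in WT with Cd8a at 0 in all libraries, and B cell genes to 88 and 90 in CKO and 85 and 18 in WT. The part of these cells in the levels of the cholesterol genes was not tested.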

How the data were processed

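RNA of 4 adipocyte preparations was extracted with TRIzol and RNeasy columns and sequenced on an Illumina NovaSeq, per the labels' protocols. STAR 2.7.5c, FastQC and GRCm38.p6 are named in the submitters' processing notes, but the sources used here name neither the counting tool nor its annotation and strand setting. The authors deposited 1 table of log2 values, and undoing the log2 and the added 1 gave a whole number within 0.01 for 100% of values in each library, so they are log2(reads + 1) with no scaling between libraries.

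Reads were recovered by rounding and divided by median-of-ratios size factors over 19847 genes (0.998 and 1.10 for CKO, 0.963 and 0.951 for WT). Genes of mean deposited log2 of at least 3 (16871) were fitted on log2(scaled reads + 1) on group alone in limma 3.58.1 (R 4.3.3; moderated variances with a mean-variance trend, two-sided; 2 residual and 2.92 prior degrees of freedom), with Benjamini-Hochberg adjustment over all of them. Changes are CKO minus WT on that scale, which understates low genes. No count model was run on the recovered reads. The fit was run on simulated data with less spread between libraries than genes such as Msmo1 and Srebf2 show here. That run therefore does not vouch for the fit at the spread of these data.

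Identifiers were matched to GENCODE M21 (55094 of 55487, 99.3%); coordinates are 1-based on GRCm38, and Fdft1 matched by an earlier version of its identifier. Levels per length divide reads by merged exon length and the library's reads. Shared sequence is the share of 50-base words found in transcripts of other genes. Promoters are RefSeq's.

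The members and lists were chosen with earlier results of these data known. All members are given with their reads, and full statistics for the 6 of smallest p and for Srebf2, Scap, Insig1 and Insig2; in each of the 5 pathway lists the 2 genes of smallest p are named. Adgre1, Cd68, Adipoq and Plin1 stand for the marker lists, which are otherwise given as sums. Lep, Mrc1, Pdgfra, Fabp4 and Srebf1 were added after their values were seen. Replicates were numbered in record order, which pairs nothing, and no batch is named in the labels.

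Alternatives run were no filter on low genes, a filter at 6, no scaling, total reads, quantile normalisation, a pseudocount of 10, no trend, a robust fit, library weights, voom weights, and each library left out in turn.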

Additional observations from a re-analysis of the deposited data

How the results depend on the processing

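With 2 libraries in each group, a single library decides much. The number of members lower at an adjusted p under 0.05 was 0 to 4 when each library was left out in turn, with 4 without WT replicate 1. The number lower at an unadjusted p under 0.05 was 0 to 7, and the number higher 0 to 3, where 7 and 3 came without WT replicate 1, which called 17.0% of all genes in each direction. Members with both CKO libraries below WT were 11 to 15, against 35.2% to 43.3% of all genes, and above WT 2 to 9, against 34.1% to 43.1%, where fewer libraries are compared. The number lower at an unadjusted limma p under 0.05 also moved with the processing of all 4 libraries. It was 6 in the main fit, 4 without scaling or without a trend, and 7 with library weights, and 0 were higher. The share of all genes was not counted for these alternatives. Without scaling, 4 members lay above WT in both CKO libraries, against 33.5% of all genes. Unscaled values moved the median of all genes by 0.13, and the median of the members, below 0 under each scaling run, was then -0.022, against -0.16 with size factors, -0.071 with total reads and -0.070 with quantile normalisation. Its range over the leave-outs was -0.263 to -0.0194.

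Dhcr7 (-1.74), Msmo1 (-1.79) and Srebf2 (-1.45) passed the adjusted threshold without WT replicate 1, each at a limma adjusted p of 0.0442. Over the leave-outs Dhcr7 ranged between -1.74 and -0.978, Mvd between -1.21 and -0.811, Srebf2 between -1.45 and -0.406, Insig1 between -1.10 and -0.492 and Insig2 between 0.016 and 0.501. Scap was at -0.0903 without CKO replicate 1, within a range of -0.0903 to 0.228. No paired analysis was possible because the labels give no replicate numbers that the groups share.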
